A study of Mus musculus with 2 samples.

Results

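The insulin-like growth factor (IGF) system is described here through 9 genes, chosen by symbol: the ligand genes Igf1 and Igf2, the receptor gene Igf1r, and the binding protein genes Igfbp2, Igfbp3, Igfbp4, Igfbp5, Igfbp6 and Igfbp7. All 9 were found among the 33456 genes of the count matrices, and all 9 passed the filter on low counts. The rule names genes and uses no level, but it was set with earlier results of these data known. The counts are made per gene, so the word isoform here means a member of the binding protein family, not a splice form.

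IGF1 and IGF2 are small secreted growth factors that act mainly through the IGF1 receptor, a cell surface tyrosine kinase. In extracellular fluid most IGF is held by binding proteins, which lengthen its life, keep it from the receptor or tie it to the matrix until proteases release it. In the eye, IGFs are known for their part in the growth of the globe and of retinal vessels. The ciliary body consists of a bilayer of non-pigmented and pigmented epithelium over a vascular stroma. It secretes the aqueous humour.

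The study is exploratory and holds 1 group without treatment: tissue labelled ciliary epithelium, pooled from the eyes of WT C57BL/6 mice at postnatal day 35 and digested to single cells. The 2 droplet libraries are separate pools (n = 2), of 3 sets of eyes in library 1 and of 3 or 4, as the labels differ, in library 2. After filtering, library 1 held 3865 cells with a median of 4128 unique molecular identifiers (UMIs, which count captured transcripts) and 135469 UMIs of the 9 genes, and library 2 held 5466 cells with a median of 2968 UMIs and 74522 such UMIs. The 2 libraries shared 8 cell barcodes. Markers of the labelled tissue were present in only a small share of the cells: non-pigmented epithelium made up 3.67% and 2.76% of library 1 and library 2, and pigmented epithelium 3.54% and 4.01%. The pigmented class was named by a marker list for ciliary or iris epithelium, and these were not told apart. The ciliary layers below are this class and the non-pigmented class, so the pigmented one may include iris cells. Stromal cells (fibroblasts, contractile stroma and pericytes) made up 34.7% and 12.3%, and rods 9.78% and 32.3%. The cells fell into 22 marker-named classes, of which 20 had at least 20 cells in each library and could be tested. None of the 9 genes took part in forming the classes.

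Of 180 pairs of a member with a class, each class being set against the mean of the other classes, 76 (42.2%) passed the threshold, 48 higher and 28 (15.6%) lower. Over all genes tested, 18.5% of 138040 such pairs passed, and 3.45% were lower. A call here means an adjusted p under 0.05 (Benjamini-Hochberg over 6902 genes, edgeR quasi-likelihood test on UMIs summed per class and library) together with a log2 fold change of 1 or more in size. Each gene had its own set of classes. B cells held 0 UMIs of Igf1, Igf2 and Igfbp3 in both libraries, rod bipolar cells 0 of Igf2 and neutrophils 0 of Igfbp3, so the size of a fold change against the mean of the other classes depends for these genes on how the fit treats 0. In a fit without these 3 classes, chosen after seeing the data, 60 of the 66 calls in the other classes held, 15 more pairs were called lower, and every log2 fold change of a member was lower than in the fit of all 20 classes, by 0.02 to 0.65. The calls gained over all genes were not counted in that fit, so the 15 are not read as particular to the members. The calls lost there were those of Igf1r in both pigment epithelia and in Schwann cells, of Igf1 and Igfbp5 in pericytes and of Igfbp3 in retinal pigment epithelium. Fibroblasts were higher in 8 of 9 members, all but Igf1r, against 20.5% of all genes in that class. Levels are given as UMIs of a gene per 1000000 UMIs of the cells (CPM). They are not scaled by transcript length, because the method reads only the transcript end. Pairs of values are library 1 and library 2.

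**Figure D1:**
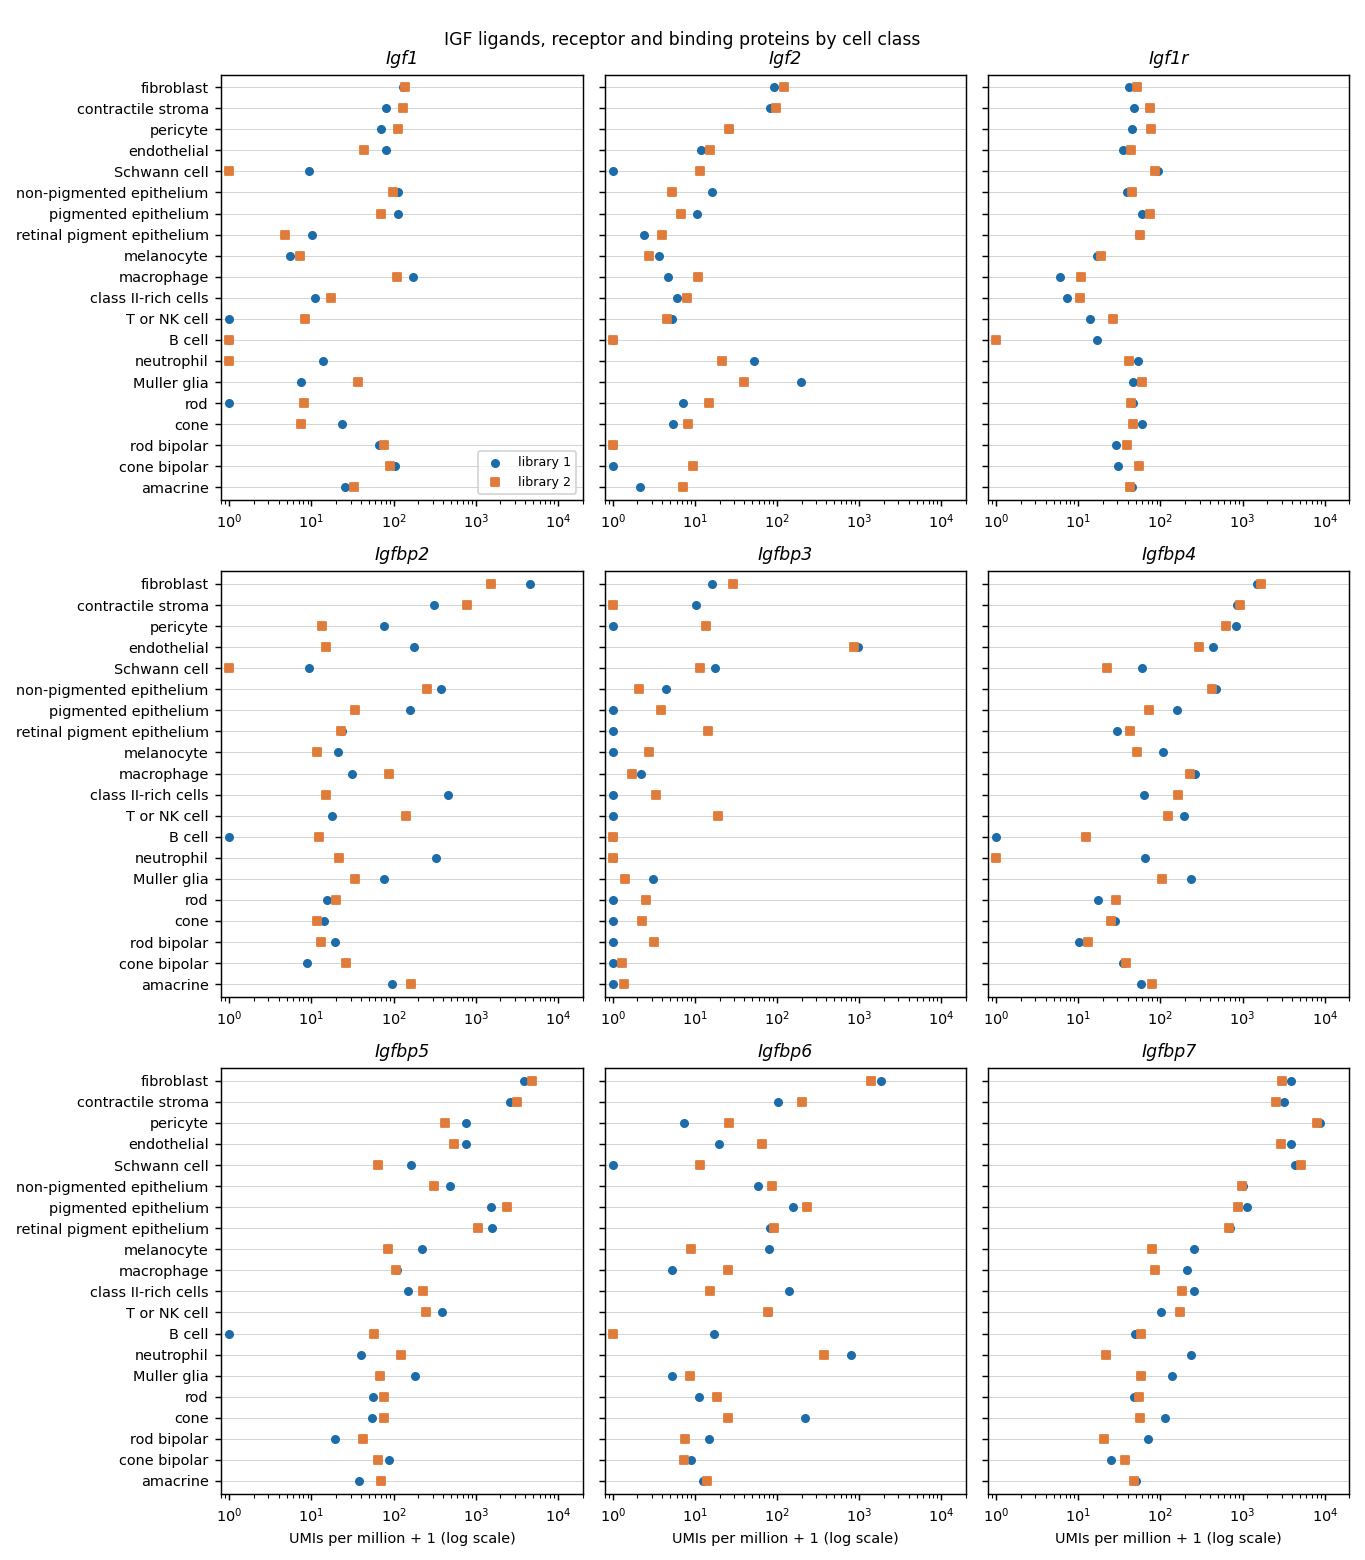
Level of each of the 9 genes (CPM + 1, logarithmic x axis) in the 20 tested cell classes, with circles for library 1 and squares for library 2. Igfbp3 stands apart in endothelium (958 and 873), Igfbp7 is highest in pericytes, the other binding proteins are highest in fibroblasts, and Igf1r varies least.

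Igf1, the ligand under growth hormone control in many tissues, was spread over several classes with similar levels. Macrophages had 171 and 110 CPM and fibroblasts 130 and 136 CPM. Non-pigmented epithelium had 111 and 97.0 CPM, pigmented epithelium 112 and 69.3 CPM, and cone bipolar cells 103 and 90.8 CPM. Rods had 0 and 7.19 CPM and retinal pigment epithelium, which adjoins the pigmented ciliary layer, had 9.16 and 3.75 CPM. Both ciliary layers lay above retinal pigment epithelium in each library, while most neighbours in the order of the 20 class means (17 of 19) overlapped. Igf1 was higher than the mean of the other classes in 9 of the 20 classes, with pericytes not past the threshold without the classes at 0, from macrophages (log2 fold change 3.45 ± 0.29, SE) and fibroblasts (3.02 ± 0.28) to endothelium (1.64 ± 0.40, adjusted p = 0.00192). Of the endothelial Igf1 UMIs, 86 of 95 and 19 of 21 lay in E5, a deep sub-cluster described below that also carried pericyte and fibroblast markers, and whether the call holds without E5 was not tested. The non-pigmented class stood at 2.49 ± 0.34 and the pigmented class at 2.26 ± 0.34. An Igf1 UMI was seen in 33.3% and 28.8% of fibroblasts (median 5710 and 5314 UMIs per cell), against 0% and 1.70% of rods (1017 and 1244 UMIs). After thinning every cell to 1000 UMIs and leaving out shallower cells (12 and 15 fibroblasts, 181 and 467 rods), the shares were 9.52% and 10.7% of fibroblasts, against 0% and 0.540% of rods. The 0 UMIs in rods of library 1 allow up to 6.15 CPM (3 counts).

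Igf2, the ligand best known from fetal growth, was low, with 859 and 783 UMIs in all. Muller glia had 194 CPM in library 1 and 38.9 in library 2, fibroblasts 89.9 and 122 CPM, and contractile stroma 80.9 and 96.0 CPM. Non-pigmented epithelium held only 13 and 4 Igf2 UMIs and pigmented epithelium 9 and 8 UMIs. The 3 high classes were called, fibroblasts at 4.26 ± 0.31, Muller glia at 3.74 ± 0.40 and contractile stroma at 3.61 ± 0.42. The libraries differed in Muller glia: its Igf2 level was 5.13 times that of all other classes pooled in library 1 (95% counting interval 4.08 to 6.38) and 1.47 times in library 2 (1.16 to 1.83). Of the Igf2 UMIs, 81.8% and 65.4% came from stromal cells, which supplied 38.6% and 14.7% of all UMIs. The Igf2 gene overlaps the antisense gene Igf2os and another annotated gene on its own strand, which is not among the genes of the count matrices. What these overlaps do to the Igf2 counts was not tested.

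Igf1r, the receptor, was the most even of the 9 genes, with class means between 7.41 and 88.8 CPM around a median of 43.5 CPM. Pigmented epithelium had 59.0 and 74.3 CPM (log2 fold change 1.08 ± 0.20) and retinal pigment epithelium 53.6 and 54.7 CPM (1.06 ± 0.20), both called higher, but at 0.95 and 0.94 without the classes at 0, under the fold threshold. Macrophages had 4.93 and 9.88 CPM and were lower (-1.79 ± 0.30, adjusted p = 9.35e-06), as were cells rich in class II histocompatibility genes, with 6.40 and 9.38 CPM (-1.67 ± 0.39). Of the 20 classes, macrophages had the highest mean level of Igf1 and the lowest mean level of its receptor. Neither rank stood apart from the next class. In library 2, Igf1 was 110 CPM in macrophages and 136 CPM in fibroblasts, and Igf1r overlapped with class II-rich cells. Schwann cells had 92.5 and 85.2 CPM from only 11 and 8 UMIs. Their call (1.22 ± 0.35, adjusted p = 0.0303) was lost under 5 alternatives, with adjusted p between 0.0566 and 0.174.

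Igfbp2 and Igfbp5 are neighbours on mouse chromosome 1 (build GRCm38, GENCODE annotation), at chr1:72824503-72852474 on the plus strand and chr1:72857932-72874884 on the minus strand, with their ends 5457 bases apart. IGFBP2 can bind integrins and heparin-like chains as well as IGFs, and IGFBP5 binds matrix and bone mineral. The pair is shown by sequence because the genes go together in fibroblasts and apart in pigment epithelia and in stromal sub-clusters. The 200 bases before each gene follow, from RefSeq promoters of GRCm38.p6. They end at whichever annotated start lies further upstream, for Igfbp2 that of RefSeq, 23 bases before that of GENCODE, and for Igfbp5 that of GENCODE, 19 bases before that of RefSeq. They are read along each gene's own strand, and capitals mark each GC box, spelled GGGCGG, that was found on either strand. A search for the TATA box, spelled TATAAA, was made in the same way.
Igfbp2, chr1:72824280-72824479, plus strand: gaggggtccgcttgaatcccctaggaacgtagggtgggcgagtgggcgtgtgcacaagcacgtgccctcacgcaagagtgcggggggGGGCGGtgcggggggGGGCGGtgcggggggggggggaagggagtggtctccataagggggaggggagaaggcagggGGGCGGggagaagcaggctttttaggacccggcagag
Igfbp5, chr1:72874885-72875084, minus strand: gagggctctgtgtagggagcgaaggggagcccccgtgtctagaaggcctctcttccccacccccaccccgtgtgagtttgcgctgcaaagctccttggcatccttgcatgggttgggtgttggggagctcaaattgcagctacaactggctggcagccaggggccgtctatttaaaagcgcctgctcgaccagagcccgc
The Igfbp2 stretch has a GC content of 70.5% and holds 3 GC boxes, and the Igfbp5 stretch has 61.5% and holds neither motif. Of 32851 mouse promoters, 31.0% hold a GGGCGG and 9.96% a TATAAA in the 200 bases upstream of their RefSeq starts, and the 2 motifs cannot overlap. A match is a description of letters only.

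Igfbp2 was highest in fibroblasts, at 4582 CPM in library 1 and 1548 CPM in library 2. Contractile stroma followed at 309 and 791 CPM and non-pigmented epithelium at 376 and 252 CPM. Pigmented epithelium had 158 and 32.9 CPM, retinal pigment epithelium 22.6 and 21.7 CPM and rods 14.3 and 19.0 CPM. Fibroblasts supplied 93.6% and 80.9% of all Igfbp2 UMIs and were higher by 6.09 ± 0.36 on the log2 scale, non-pigmented epithelium by 2.54 ± 0.50. In non-pigmented epithelium of library 1, 160 of the 326 Igfbp2 UMIs lay in 1 cell, without which the level was 202 CPM. Class II-rich cells were also called (2.54 ± 0.54), but 213 of their 355 UMIs in library 1 lay in 1 of 112 cells, without which the level was 187 CPM, and library 2 had 14.1 CPM. The 11 fibroblast markers summed to 3618 and 422 CPM in class II-rich cells, against 50793 and 30800 CPM in fibroblasts, and their part in this value was not tested.

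Igfbp5 was highest in fibroblasts too, at 3893 and 4912 CPM, then in contractile stroma at 2633 and 3172 CPM. Unlike Igfbp2, it was high in the pigment epithelia: pigmented ciliary or iris epithelium had 1544 and 2380 CPM (log2 fold change 3.34 ± 0.23) and retinal pigment epithelium 1574 and 1059 CPM (2.99 ± 0.24). Non-pigmented epithelium had 481 and 311 CPM, and rods 55.3 and 74.9 CPM. An Igfbp5 UMI was seen in 70.1% and 77.6% of pigmented epithelial cells, against 6.61% and 12.4% of rods. These shares are given without thinning, and the pigmented cells were deeper (median 4923 and 3908 UMIs) than rods (1017 and 1244 UMIs). Igfbp5 was lower in 8 classes, 5 of them photoreceptor, bipolar or amacrine cells.

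Igfbp4, which restrains IGF until the protease PAPP-A cleaves it, was highest in fibroblasts (1479 and 1701 CPM), contractile stroma (853 and 929 CPM) and pericytes (834 and 637 CPM). It was seen in 89.6% and 92.3% of fibroblasts, against 2.12% and 5.84% of rods, which were shallower, and these shares are given without thinning. Macrophages had 262 and 228 CPM and were called higher (1.90 ± 0.25). Igfbp6, which prefers IGF2 as its ligand, reached 1842 and 1400 CPM in fibroblasts, which held 91.8% and 85.6% of its UMIs. Neutrophils came next, at 803 and 369 CPM (log2 fold change 3.89 ± 0.59, adjusted p = 3.96e-06), with an Igfbp6 UMI in 23 of 42 and 13 of 27 cells. The 11 fibroblast markers summed to 10383 CPM in the neutrophils of library 1 and to 349 CPM in those of library 2. Their part in the Igfbp6 values was not tested. Pigmented epithelium (157 and 230 CPM, 2.47 ± 0.44) was also higher in Igfbp6.

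Igfbp3, the main carrier of IGF in blood plasma, was an endothelial transcript in these cells. Endothelium had 958 and 873 CPM, and fibroblasts, the next class, had 15.2 and 28.1 CPM. The endothelial level was 159 times (95% counting interval 131 to 194) and 149 times (124 to 180) that of all other classes pooled, and endothelium supplied 90.5% and 72.7% of Igfbp3 UMIs. The log2 fold change was 9.17 ± 0.27 (adjusted p = 5.10e-24), and 8.69 ± 0.27 without the classes at 0. An Igfbp3 UMI was seen in 67.6% and 51.0% of endothelial cells, against 0% and 0.340% of rods. These shares are given without thinning, and endothelial cells were deeper (median 5155 and 3206 UMIs) than rods. A call in retinal pigment epithelium (1.95 ± 0.76, adjusted p = 0.0488) rested on 0 UMIs in library 1 and 18 UMIs, in 4 cells, in library 2, and was lost without the classes at 0 (adjusted p = 0.0923).

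Igfbp7, a distant member that binds IGF weakly and is a known vessel and matrix protein, was led by pericytes with 8752 and 8148 CPM (4.71 ± 0.20). Schwann cells had 4356 and 5093 CPM (3.85 ± 0.22), fibroblasts 3931 and 3061 CPM, endothelium 3935 and 2952 CPM, and contractile stroma 3163 and 2531 CPM. Both ciliary layers were alike, at 1001 and 981 CPM in non-pigmented epithelium and 1129 and 874 CPM in pigmented epithelium. Rods had 47.1 and 53.8 CPM. Every pericyte of library 1 and 88.9% of those of library 2 held an Igfbp7 UMI.

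Expressed as shares of the UMIs of 7 binding protein genes (these 6 and Igfbp1, which was near 0 throughout), several classes differed in make-up. In fibroblasts the UMIs were spread over 5 genes: Igfbp2 took 29.1% and 12.2%, Igfbp4 9.40% and 13.4%, Igfbp5 24.7% and 38.8%, Igfbp6 11.7% and 11.1%, and Igfbp7 25.0% and 24.2%. Pigmented epithelium was dominated by Igfbp5 (49.0% and 66.3%), as was retinal pigment epithelium (65.5% and 55.7%). Non-pigmented epithelium was led by Igfbp7 (41.7% and 47.9%), with Igfbp4 at 20.0% and 20.4%. Igfbp7 made up 83.9% and 88.0% in pericytes and 94.7% and 98.0% in Schwann cells. Igfbp4 led in macrophages (42.6% and 42.8%) and Muller glia (36.8% and 38.3%), Igfbp6 in neutrophils (54.9% and 69.2%) and Igfbp2 in amacrine cells (37.5% and 44.2%). Not every class stood apart. Rods, with only 70 and 898 such UMIs, had 38.6% and 38.3% of Igfbp5 and 32.9% and 27.5% of Igfbp7. Those shares were near the ones of fibroblasts in library 2.

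**Figure D2:**
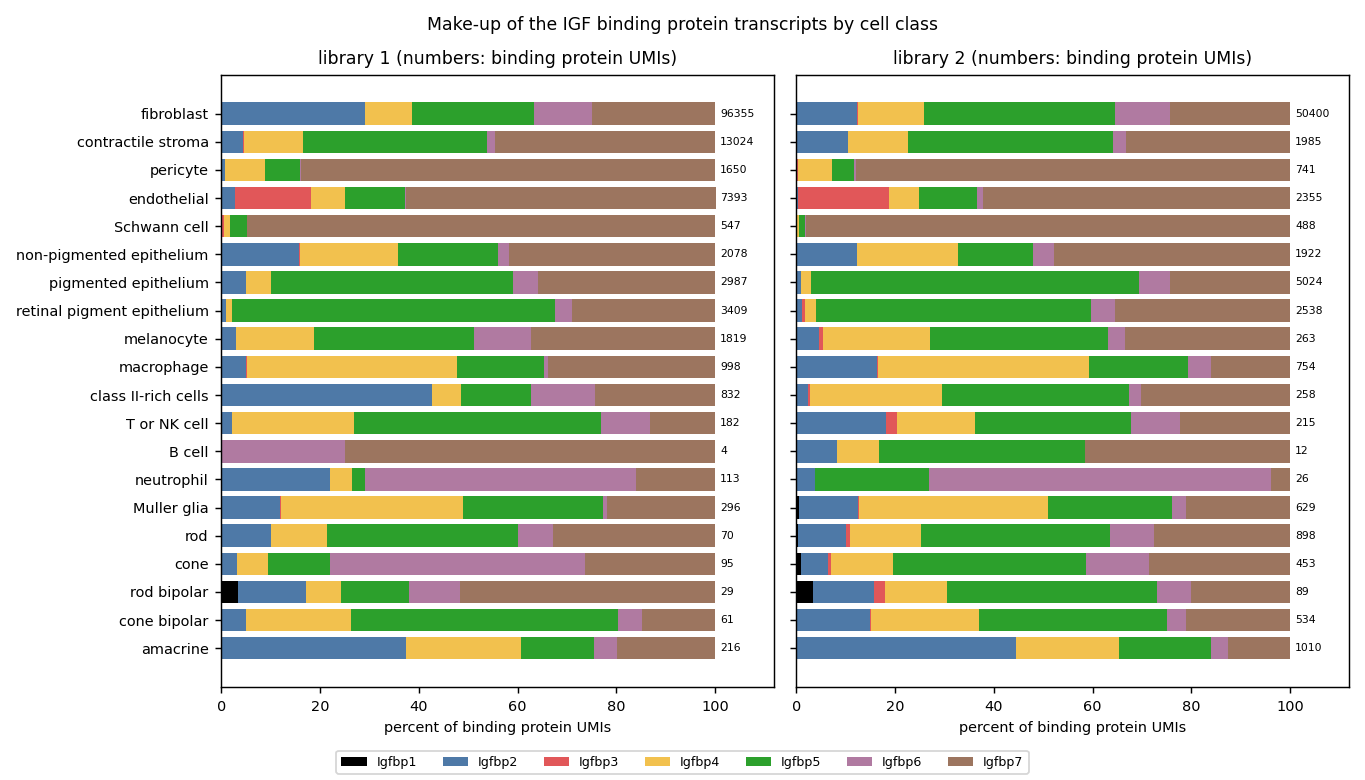
Share of each binding protein gene in the binding protein UMIs of a class (x axis, percent), by library, with the number of UMIs at the right of each bar. Igfbp5 fills most of the bars of retinal pigment epithelium in both libraries (65.5% and 55.7%), Igfbp7 those of pericytes and Schwann cells, and Igfbp3 shows mainly in endothelium, while bars with few UMIs, such as those of B cells, carry little weight.

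Fibroblasts were set against the mean of both ciliary epithelial layers to compare stroma with epithelium. All 6 binding proteins and Igf2 were higher in fibroblasts, 7 of 9 members, against 14.3% of all genes tested. None of the 9 was lower (0 also at an unadjusted p under 0.05 and by DESeq2), against 10.0% of all genes. Igfbp2 differed by 4.30 ± 0.65 on the log2 scale, Igfbp6 by 3.90 ± 0.55, Igf2 by 3.80 ± 0.44, Igfbp3 by 3.57 ± 0.62, Igfbp4 by 2.98 ± 0.32, Igfbp5 by 2.47 ± 0.35 and Igfbp7 by 1.95 ± 0.33, with adjusted p from 2.13e-09 to 2.04e-05. Igf1 (0.62 ± 0.32, adjusted p = 0.149) and Igf1r (-0.04 ± 0.22, adjusted p = 0.929) did not pass. The median of the 9 values was 2.98, against 0.06 over all genes. Whether a class difference comes from more cells with the RNA or from more RNA per cell cannot be told apart in these sums alone, and the shares of cells above bear on it only down to the depth of each class.

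**Figure D3:**
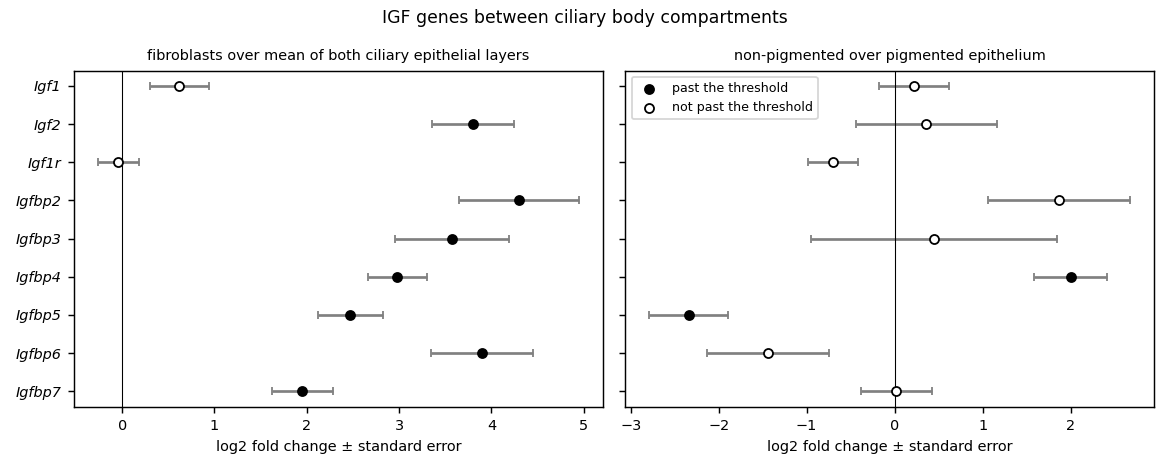
Log2 fold change with standard error (x axis) of the 9 genes for fibroblasts over the mean of both ciliary layers, left, and for non-pigmented over pigmented epithelium, right. Filled points passed the threshold. At left, 7 genes passed and lie to the right of 0, Igf1 and Igf1r did not pass, and Igfbp4 (2.00) and Igfbp5 (-2.34) are opposite at right.

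Between the ciliary layers, 2 binding proteins differed, in opposite directions. Igfbp4 was higher in non-pigmented epithelium, at 479 and 419 CPM against 160 and 72.2 CPM in pigmented epithelium (2.00 ± 0.41, adjusted p = 8.66e-04). Igfbp5 was lower there, at 481 and 311 CPM against 1544 and 2380 CPM (-2.34 ± 0.45, adjusted p = 4.01e-04). Among all genes, 4.53% were higher and 2.71% lower. The 2 values of each layer did not overlap for either gene, and how many genes do so was not counted. Both calls held under every alternative that gave a test. Library 1 alone gave 1.57 for Igfbp4 and -1.68 for Igfbp5, and library 2 alone 2.51 and -2.93, without a test. An Igfbp4 UMI was seen in 33.8% and 35.8% of non-pigmented cells and 17.5% and 15.1% of pigmented cells, and of the 415 UMIs of non-pigmented cells in library 1, 117 came from 1 cell, without which the level was 363 CPM. Of the rest, Igfbp2 had 376 and 252 CPM in the non-pigmented class against 158 and 32.9 CPM in the pigmented class (1.87 ± 0.81, adjusted p = 0.196). In the pigmented class of library 1, 103 of the 150 Igfbp2 UMIs lay in 1 cell, without which the level was 50.8 CPM. Igfbp6 had 57.7 and 85.3 CPM against 157 and 230 CPM (-1.44 ± 0.69, adjusted p = 0.274). Both Igfbp2 and Igfbp6 passed the threshold without the low-count filter and without the 10% of cells with the most UMIs. The fibroblast markers summed to 1110 and 685 CPM in non-pigmented epithelium and to 1166 and 307 CPM in pigmented epithelium, against 264 and 443 CPM in rods, and the median UMIs per cell were 3192 and 2458 in the non-pigmented class and 4923 and 3908 in the pigmented class. Their part in these values was not tested.

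Within the pigmented layer, a sub-cluster rich in the muscle myosin gene Myh11 (58 and 18 cells) had 929 and 777 CPM of Igfbp5. The other pigmented sub-clusters had 1599 and 2597 CPM (42 and 106 cells, led by the keratin genes Krt5 and Krt15) and 2092 and 2486 CPM (37 and 95 cells), so the Myh11-rich cells were lowest in both libraries. In library 2, 44 of their 79 Igfbp5 UMIs lay in 1 of 18 cells, without which the level was 376 CPM. These sub-cluster levels are a description, without a test.

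The stroma, 2013 cells in all, was divided into 7 sub-clusters without use of the 9 genes, and 4 of them had enough cells for a test. S1 (327 and 367 cells) carried markers of uveal or meningeal fibroblasts such as Foxd1 and Crabp2, with haemoglobin and cone genes beside them. S2 (367 and 82 cells) carried Lmx1b, Chodl and Tagln, markers of contractile stroma. S3 (285 and 124 cells) carried trabecular meshwork markers such as Myoc, Chil1 and Angptl7, together with tendon markers such as Tnmd and Chad. S4 (286 and 54 cells) carried corneal stroma markers such as Kera and Clec3b, and others of adventitial fibroblasts. Over the 36 pairs of a member with a sub-cluster, 7 (19.4%) were higher and 6 (16.7%) lower than the mean of the other 3, against 4.13% and 3.04% of all pairs over 5677 genes.

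Igfbp2 and Igfbp6 separated the stromal groups most. S3 was higher in both, with 6400 and 4082 CPM of Igfbp2 (2.57 ± 0.23, adjusted p = 1.55e-06) and 2192 and 2998 CPM of Igfbp6 (2.43 ± 0.17, adjusted p = 1.24e-07). S4 was higher in both as well, with 6543 and 2717 CPM of Igfbp2 (2.10 ± 0.23) and 1975 and 1744 CPM of Igfbp6 (1.57 ± 0.18). S2 was lower, with 288 and 517 CPM of Igfbp2 (-2.98 ± 0.31; 320 CPM in library 2 without 1 cell) and 104 and 127 CPM of Igfbp6 (-4.25 ± 0.26). S1 had 723 and 623 CPM of Igfbp2 (-1.69 ± 0.28) and 1268 and 778 CPM of Igfbp6 (0.26 ± 0.18, not past the threshold). The levels of Igfbp6 in S2 did not overlap with those of any other tested sub-cluster, and how many genes do so was not counted. Cells of S3 were deeper (median 7766 and 7088 UMIs) than those of S2 (3889 and 3514 UMIs), and the part of depth was not tested.

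Igfbp5 had another order, with S1 highest at 6953 and 6245 CPM (1.36 ± 0.19, adjusted p = 4.79e-04) and S4 lowest at 2375 and 982 CPM (-1.17 ± 0.23, adjusted p = 0.00234). Igfbp7 was lower in S4, at 1705 and 1236 CPM (-1.28 ± 0.14), against 4782 and 3597 CPM in S3. Igfbp3 was higher in S4 (2.37 ± 0.40) at only 33.3 and 88.7 CPM, and 12 of its 30 UMIs in library 2 lay in 1 cell, without which the level was 54.2 CPM. The calls of Igfbp5 in S1 and S4 and of Igfbp3 in S4 were lost without library as a block, with adjusted p = 0.0579, 0.0963 and 0.0800, and so were those of Igf1 (-1.46 ± 0.38) and Igfbp2 in S1, with adjusted p = 0.288 and 0.0782. Of the 13 calls, 3 held under every alternative that gave a test: Igfbp6 in S2 and S3 and Igfbp7 in S4. Igfbp2 in S4 stood at 0.31 with a mitochondrial limit of 15%. Among the sub-clusters too small to test, S5 (26 and 16 cells, with 9 of 9 scleral or tendon markers) had the highest Igfbp6, 4121 and 4293 CPM, and almost no Igfbp2, with 2 and 0 UMIs. S7 (23 and 15 cells, 9 of 9 pericyte markers) had 0 UMIs of Igfbp2 and of Igfbp6 in either library, which allows up to 43.5 and 69.4 CPM, beside 8700 and 9164 CPM of Igfbp7.

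A finer division of the same cells into 12 sub-clusters separated these groups further. Over its 7 testable sub-clusters, 15 of 63 pairs were higher and 11 lower, against 4.87% and 2.55% of all pairs. F9 held 0 UMIs of Igfbp2 and F8 0 UMIs of Igfbp3 in both libraries, so the fold changes of F1 to F5 are given from a fit without F8 and F9, chosen after seeing the data, in which 7 of 45 pairs were higher and 7 lower, against 4.33% and 2.65% of all pairs. S3 contained F4 (141 and 75 cells) and F5 (137 and 39 cells), both with trabecular meshwork markers. F4 was the Igfbp6-rich one, with 3213 and 3858 CPM (2.96 ± 0.18), against 1233 and 1227 CPM in F5. F5, led by Dkk1, an inhibitor of Wnt signalling, was the Igfbp2-rich one with 9834 and 8027 CPM (2.70 ± 0.27), against 3010 and 2399 CPM in F4, which did not pass (0.70 ± 0.30, adjusted p = 0.181). Igfbp2 alone made up 53.0% and 51.8% of the binding protein UMIs of F5. F4 and F5 were not tested against each other. Their 2 values did not overlap for either gene, which is weak with 2 values each, and how many genes do so was not counted.

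S4 likewise contained groups that differed. F3 (204 and 39 cells), with corneal stroma markers, had 8822 and 3750 CPM of Igfbp2 (2.04 ± 0.28) and only 539 and 530 CPM of Igfbp5 (-2.70 ± 0.19, adjusted p = 3.25e-09). F7 (82 and 14 cells, too few to test), with 7 of 8 adventitial markers including Pi16 and Dpp4, had 595 CPM of Igfbp2 in library 1 (334 CPM without 1 cell) and 0 in library 2, 7167 and 2330 CPM of Igfbp5 and 4551 and 4810 CPM of Igfbp6. F1 (317 and 356 cells), nearly the same cells as S1, had the highest Igfbp5 among the tested sub-clusters, 7198 and 6355 CPM (1.70 ± 0.14), and was higher in Igfbp4 (1.14 ± 0.15). F1 and F2 (228 and 28 cells) were lower in Igfbp2 (-2.50 ± 0.37 and -2.94 ± 0.41), F1 with 527 and 589 CPM and F2 with 242 and 1010 CPM. In F2 of library 2, 65 of the 110 UMIs lay in 1 of 28 cells, without which the level was 449 CPM, and in F1 of library 1, 280 of the 812 UMIs lay in 1 cell, without which it was 350 CPM. In the fit with all 7, the pericyte sub-cluster F9 (24 and 23 cells) was lower in Igfbp5 (-2.28 ± 0.24) and had 0 UMIs of Igfbp2.

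**Figure D4:**
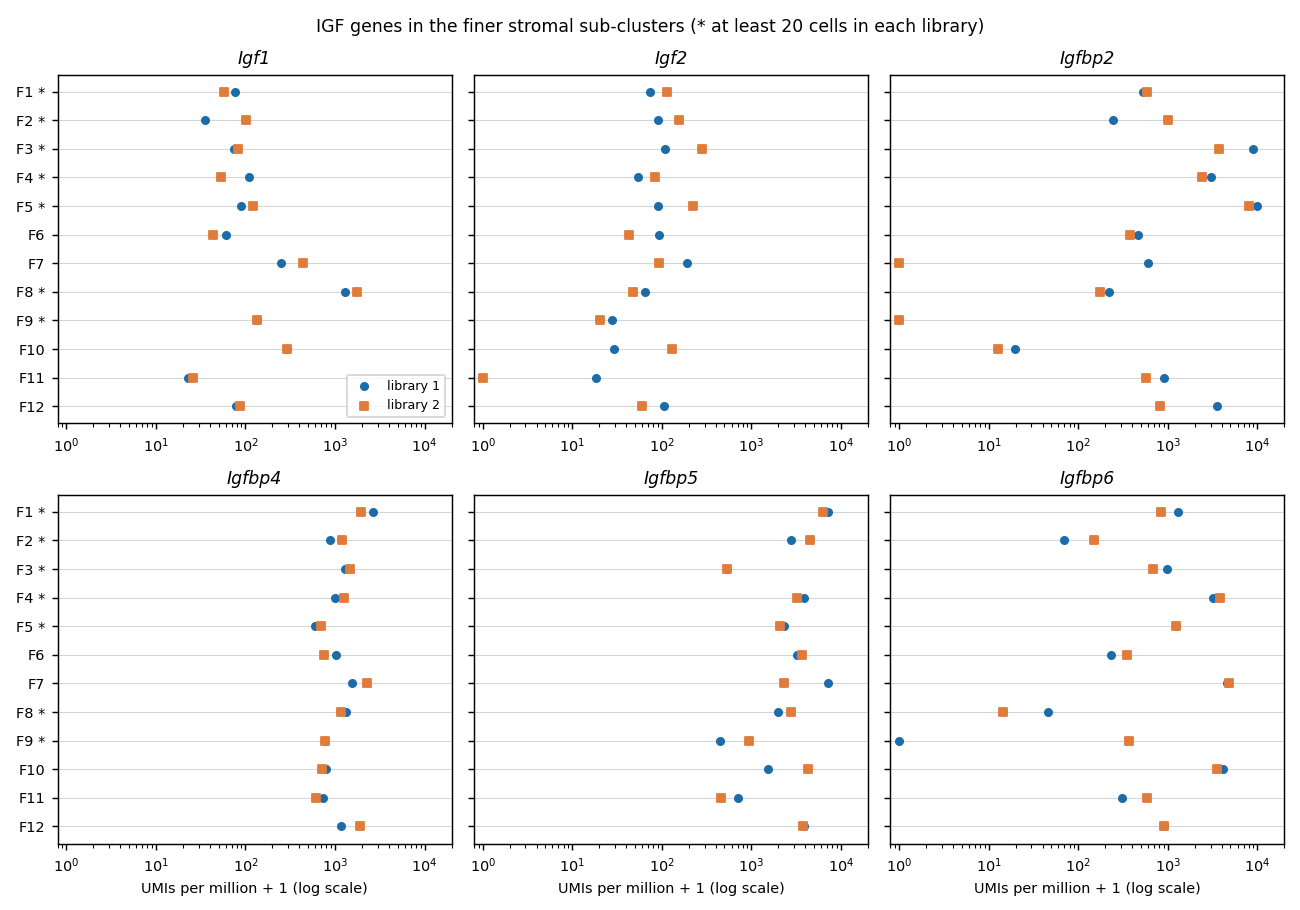
Level of 6 of the genes (CPM + 1, logarithmic x axis) in the 12 finer stromal sub-clusters, with circles for library 1 and squares for library 2. Igf1 peaks in F8 (1305 and 1755), Igfbp2 in F5 and F3, and Igfbp6 in F7, F10 and F4, while Igfbp5 is lowest among the fibroblast groups in F3 (539 and 530) and low in F9 and F11 as well.

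Igf1 was concentrated in F8, a sub-cluster of 44 and 35 cells that leads with Myl10 and Ptn and met no set of markers, so it is unnamed. It was singled out after its values were seen. F8 had 1305 and 1755 CPM of Igf1, against 87.0 and 77.8 CPM in the rest of the stroma. An Igf1 UMI was seen in 37 of 44 and 25 of 35 of its cells (84.1% and 71.4%), against 27.4% and 26.5% of other stromal cells, which had more UMIs per cell (medians 5140 and 5023, against 4258 and 4004 in F8). F8 held 27.7% and 44.5% of the stromal Igf1 UMIs in 3.28% and 5.22% of the stromal cells. The log2 fold change over the mean of the 6 other tested sub-clusters was 4.08 ± 0.19 (adjusted p = 2.37e-12). In library 1, 94 of its 264 UMIs lay in 1 cell, without which the level was 899 CPM. F8 was lower in Igfbp6 (-4.45 ± 0.58), with 44.5 and 13.4 CPM. Of its cells, 77 of 79 lay in S2. The contractile stroma class of the first clustering had 79.8 and 131 CPM of Igf1, and fewer Igf1 UMIs than F8 in both libraries. Part of the F8 cells thus belonged to another stromal class, and F8 is not read as contractile. The level of S2 was 173 and 869 CPM of Igf1 with the F8 cells and 42.0 and 87.8 CPM without them. Of the other cells of S2, 256 lay in F2, which was lower in Igf1 (-1.23 ± 0.34, adjusted p = 0.0135), and 107 in F6, too small to test, with 59.8 and 42.1 CPM. The call of Igf1 in S2 as a whole (1.84 ± 0.34, adjusted p = 0.00139) turned to -0.60 with count splitting and to -0.53 in the stromal clusters of the first clustering. Library 1 alone gave 0.84 for Igf1 in S2, and library 2 alone 3.21.

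Endothelium, described without a test, was not uniform in Igfbp3. E2 (59 and 9 cells) had 2331 and 1183 CPM, but 32 of its 50 UMIs in library 2 lay in 1 cell, without which the level was 563 CPM. E4 (2 and 29 cells), which also carried 10 of 10 rod markers, had 575 CPM from 4 UMIs in library 1 and 2083 CPM in library 2. E3 (31 and 20 cells), with 5 of 6 markers of lymphatic or Schlemm canal endothelium including Prox1 and Ccl21a, had 65.5 and 152 CPM, the lowest in both libraries, beside 1830 and 493 CPM of Igfbp5. Without the cell with the most UMIs of the gene, E3 in library 2 had 55.5 CPM of Igfbp3 and 273 CPM of Igfbp5. E1 (23 and 28 cells), led by Slco1c1, a transporter of barrier vessels, and by globin genes, had 195 and 653 CPM of Igfbp3 and 0 UMIs of Igf1. E5 (30 and 10 cells) had 159 and 122 CPM of Igf1 and 852 and 784 CPM of Igfbp3. It also carried 8 of 9 pericyte markers and 6 of 11 fibroblast markers and had medians of 15334 and 12517 UMIs per cell. Whether E5 holds more than 1 cell per barcode was not tested. In library 2, 8 of the 19 Igf1 UMIs of E5 lay in 1 cell, without which its level was 77.0 CPM.

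Lists of other genes of the pathway were compared in the same fits, with the named genes taken by size of change. Of 25 tested genes of IGF receptors and signalling, 5 were higher and 2 lower in fibroblasts against the ciliary layers, where 14.3% and 10.0% of all genes were. The list's median was 0.10, against 0.06 over all genes. The higher ones included the translation repressor Eif4ebp1 (1.83 ± 0.29), the insulin receptor substrate Irs2 (1.76 ± 0.37) and the PI3-kinase regulatory subunit Pik3r1 (1.71 ± 0.31). Another regulatory subunit, Pik3r3, was lower, as was the catalytic subunit Pik3cb (-2.59 ± 0.42). Pik3r3 stood at 6.37 and 18.3 CPM in fibroblasts against 66.7 and 38.1 CPM in the layers (-1.98 ± 0.42). Of 6 tested proteases, inhibitors and carriers, 3 were higher: Stc1, an inhibitor of PAPP-A, at 108 and 28.4 CPM against 7.16 and 4.71 CPM (3.68 ± 0.48), the endocytic receptor Lrp1 (1.38 ± 0.28) and the metalloprotease Adam9 (1.13 ± 0.33), and 0 were lower (0 at an unadjusted p under 0.05 and 0 by DESeq2). All 5 tested CCN genes, once called IGFBP-related, were higher, with a median of 3.90, and Wisp2 stood at 277 and 72.0 CPM against 1.10 and 0.428 CPM (7.78 ± 0.57). Of 9 growth hormone signalling genes, 3 were higher, all inhibitors of cytokine signalling: Socs2 (3.61 ± 0.34), Socs1 (3.00 ± 0.39) and Socs3 (2.50 ± 0.42), and the prolactin receptor Prlr was lower (-2.68 ± 0.70), but not by DESeq2. Of 3 genes for IGF mRNA binding proteins, Igf2bp2 (adjusted p = 0.00396) and Igf2bp3 (0.00248) were higher and Igf2bp1 was lower (1.23e-07), all by edgeR.

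For non-pigmented against pigmented epithelium, the background was 4.53% of all genes higher and 2.71% lower. Of the 25 signalling genes, 1 was lower in non-pigmented epithelium, the catalytic PI3-kinase subunit Pik3ca, at 52.0 and 49.0 CPM against 117 and 107 CPM in pigmented epithelium (-1.14 ± 0.31, adjusted p = 0.0159). None of the 25 was higher (2 at an unadjusted p under 0.05, 0 by DESeq2). The other calls were by edgeR, lower in the non-pigmented class, Pappa, the protease of IGFBP4 (adjusted p = 0.0448), Prlr (0.0166) and the signalling inhibitor Cish (0.0256), and, higher there, Igf2bp2 (0.00219). Their fold changes rest on few UMIs and are not given. These 4, like Pik3cb, Prlr and the mRNA binding genes above, lie outside the rule for named genes, which sets a minimum of 50 UMIs per library in whichever class is higher, and were named after their values were seen. DESeq2 made the call of Igf2bp2 but none of the other 3. None of the 5 CCN genes passed in either direction (1 higher and 0 lower at an unadjusted p under 0.05, 0 by DESeq2).

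The genes whose pattern was most like that of each member were sought over 40 sums (20 classes in 2 libraries) and 8995 candidates, by Pearson r of log2(CPM + 10). The sums share libraries and depth, so r is a description. Igfbp3 ran closest to the endothelial genes Ptprb (r = 0.934) and Cdh5 (0.933), Igfbp7 to Tgfb1i1 (0.907) and Igfbp4 to Pgf (0.888). Igfbp5 was closest to Pcolce, an enhancer of collagen processing (0.878), Igfbp2 to Wnt5a (0.862) and Igfbp6 to Pi16 (0.822). Among the ligands and receptor, Igf1 was closest to Zfhx3 (0.834), Igf2 to Scara3 (0.811) and Igf1r to Iars2 (0.770).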

How the data were processed

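Droplet single-cell RNA-seq was made from tissue labelled ciliary epithelium of WT mice at postnatal day 35, in 2 libraries of 1 group. The authors deposited UMI counts per gene and barcode. Per the matrix header they came from Cell Ranger 3.1.0, and the submitters' processing notes name CASAVA 1.8, Cell Ranger, Seurat, mm10 and GRCm38 without roles; the annotation release is not given in the sources used here. The deposited matrices hold barcodes with at least 500 UMIs, 4764 in library 1 and 6220 in library 2.

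The 9331 cells analysed had 500 genes or more and no more than 30% of UMIs from mitochondria. Genes were split at random into 16854 for clustering and 16602 held out, with the 9 genes and all lists held out. Cells were clustered on 2000 variable genes, 30 components and 15 neighbours (Leiden, resolution 1, scanpy 1.11.5) into 27 clusters, and stroma again at resolution 0.5. No doublet caller was run. Clusters took a name when at least 3 markers averaged 0.5 per 10000 UMIs and 4 times the median of the other clusters. This rule, and the joining of sub-clusters with over 90% of cells from 1 library to the most similar one, were set after the clusters were seen. The genes and lists were chosen with earlier results of these data known.

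UMIs were summed per class and library and tested with edgeR 4.0.16 (quasi-likelihood, TMM, low-count filter, library as block; R 4.3.3), over 6902 genes for classes and 5677 for stroma, with Benjamini-Hochberg adjustment. The numbers pair the samples because all classes of a library come from the same pool. With library as a block, p-values measure only how far class differences vary between the 2 pools. That spread was estimated over all tested groups together and moderated across genes. It had 19 residual degrees of freedom for classes and 3 for stroma. Small p-values therefore do not rest on the 2 values of a class alone. The same steps were tested on simulated data, for fibroblasts against the layers and for S1. Of genes changed 4-fold, 99% and 100% were called, and of genes changed 2-fold, where the threshold lies, 33% and 44%. Unchanged genes made up 9 of 141 and 6 of 150 calls. The changed genes were not drawn from those with few UMIs, no difference between the libraries was simulated, and the 2 layers were not simulated against each other. A gene not past the threshold may thus still differ by 2-fold or more, and by an unknown amount where its UMIs are few. Intervals (95%) and the 3-count limit cover counting error only. Named list genes were up to 3 called genes per list, direction and comparison with the largest change, given 50 UMIs or more per library in whichever class is higher. Alternatives were other scaling, filters, resolutions, DESeq2 1.42.0, count splitting, no block, no groups at 0 UMIs of a member, and either library alone.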

Additional observations from a re-analysis of the deposited data

How the results depend on the processing

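The count of members higher (7) and lower (0) in fibroblasts against the ciliary layers was the same under every setting that gave a test. For non-pigmented against pigmented epithelium, both counts became 2 without the low-count filter and without the 10% of cells with the most UMIs. The count of higher pairs in stromal sub-clusters, 7, became 4 with a mitochondrial limit of 15% and with at least 1000 genes per cell, 11 with count splitting (of 54 pairs) and 15 at sub-cluster resolution 1 (of 63 pairs). The count of lower pairs, 6, became 3 without the replicate block and 11 at resolution 1. Over all genes, 4.87% of pairs were higher and 2.55% lower at resolution 1. For the other settings of these counts no share over all genes was computed. Their counts are therefore not read as more or fewer differences of the members. Without the block the counts of the class comparisons moved by less than 1.5 times.

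Values that were not past the threshold changed sign as follows. Igf1r in fibroblasts against the layers was 0.18 with the 15% limit and 0.04 without the deepest cells. Between the layers, with the 15% limit, Igf1 was -0.23, Igfbp3 -2.22 and Igfbp7 -0.47. Igf2 was -0.18 with count splitting and -0.01 without the Myh11-rich pigmented sub-cluster, a setting chosen after seeing the data. Igfbp3 was -0.42 with 1000 genes per cell. Igfbp7 was -0.01 without the low-count filter, without the block and without the Myh11-rich cells, -0.0047 with count splitting and -0.0035 without the deepest cells. Called values in stroma changed sign too. Igf1 in S1, -1.46, was 0.09 with the 15% limit, 0.22 with 1000 genes and 0.77 in the stromal clusters of the first clustering, and Igfbp2 in S1, -1.69, was 0.53 at resolution 1 and 0.91 without joining. Igf1 in S2, 1.84, was -0.60 with count splitting, -1.88 at resolution 1, -1.23 at resolution 1 without the groups at 0 UMIs of a member, and -0.53 in the first clustering. Igfbp2 in S2, -2.98, was 0.17 at resolution 1. At resolution 1 the mean of the others includes F9, at 0 UMIs of Igfbp2, and without it and F8 the values of Igfbp2 were -2.50 for S1 and -2.94 for S2, lower as in the main division, while Igfbp2 in S3 stood at 0.70 and Igfbp6 in S4 at 0.18. In these fits S1 to S4 are each replaced by the finer sub-cluster that shares most cells with it. The first clustering, the unjoined sub-clusters and the fit without groups at 0 were also chosen after seeing the data. The cause of the other changes was not tested. Each library alone gives values with no test, and no counts: between the layers, Igf1 ranged from -0.01 to 0.47, Igf2 from -0.32 to 0.58, Igfbp3 from -0.73 to 1.64 and Igfbp7 from -0.17 to 0.17 over the settings that leave out one library.

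Of 40 log2 fold changes, 22 kept their direction and side of the threshold under every tested setting. The detection limit differs between classes: 3 counts correspond to 61.5 CPM in the neutrophils of library 2 and to 0.490 CPM in the fibroblasts of library 1.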
